A study of Mus musculus with 8 samples.

Results

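The transcripts described here come from 10 genes, 6 of the S100 family of calcium-binding proteins (S100a4, S100a6, S100a8, S100a9, S100a10 and S100a11) and 4 annexins (Anxa1, Anxa2, Anxa3 and Anxa5). They were selected by name out of 38392 genes in the deposited expression table, and each symbol matched 1 row. RNA was sequenced from eosinophils of female wildtype C57/BL6 mice, sorted immediately before extraction from bone marrow (CD11b+Ly6G-Ly6C-SiglecF+SSChi cells) or small intestine (CD11b+MHC-II-SiglecF+SSChi cells), with 4 libraries per tissue. The labels give no age, and according to the methods of the study 4 mice were used per tissue. Intestinal cells went through warm digestion and CD11b bead enrichment and marrow cells did not, so tissue and handling cannot be told apart. Libraries carry their column names, with bone marrow as BM_1, BM_3, BM_4 and BM_5 and small intestine as SI_6, SI_7, SI_10 and SI_11, and depth ran from 11508002 to 21289164 reads in genes.

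S100 proteins are small, mostly dimeric proteins that change shape when they bind calcium and then dock onto other proteins. Annexins bind negatively charged phospholipids in a calcium-dependent way, which brings them to membranes, and several S100 proteins bind the N-terminal tail of a particular annexin. S100A8 and S100A9 form calprotectin, the abundant cytosolic complex of neutrophils that withholds zinc and manganese from microbes and acts as a danger signal once released. In granulocytes annexin A1 is known as a brake on recruitment that acts through formyl peptide receptors.

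S100a8, S100a9, Anxa1 and Anxa3 were far lower in cells sorted as eosinophils from small intestine than in those sorted from bone marrow, by 29.5 to 503 times. These are ratios of normalised counts (reads divided by the size factor of the library). Transcripts of neutrophil precursor marker genes also took a large share of reads in the marrow libraries (below). The differences are between sorted populations, and the part of neutrophil precursor cells in them was not tested. Anxa2 was lower by 1.85 times. S100a10 and S100a6 were higher in the small intestine, by 8.49 and 2.91 times. For S100a11, Anxa5 and S100a4 no difference was called. In counts, 2 of the 10 genes were called higher and 5 lower in small intestine at a limma adjusted p below 0.05, where 34.9% of all genes were called in either direction, 22.0% higher and 12.9% lower. Among the 16215 genes that averaged 10 reads or more, which include 9 of the 10 (all but S100a4), 63.1% were called, 34.6% higher and 28.6% lower. Libraries centred on their medians, which moved the median difference of all genes from 0.37 to -0.53, gave 1 higher and 7 lower. Quantile normalisation (median -0.03) gave 2 and 6. Centring on medians of only the genes that averaged 10 reads or more (median of all genes 0.31) gave 2 and 5. The libraries of the tissues did not overlap for 7 of the 10 genes, against 34.3% of all genes and 67.4% of those that averaged 10 reads or more. On the log2-like scale of the deposited values, the median difference (intestine minus marrow) of the 10 genes was -0.82, beside 0.37 over all genes. Over genes that averaged 10 reads or more the median was 0.12. In bulk RNA, a transcript lost from every cell and a smaller share of cells that carry it cannot be told apart.

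**Figure D1:**
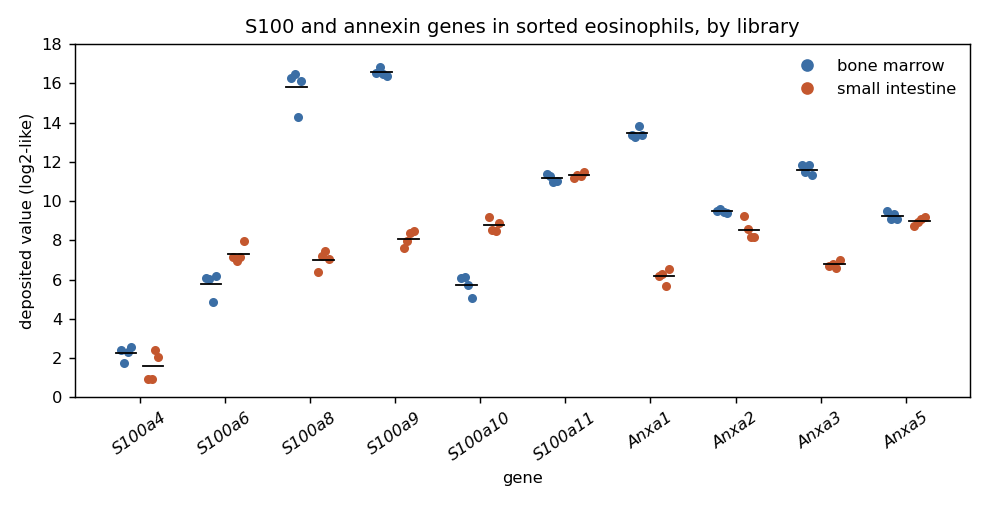
Deposited value (log2-like, vertical axis) of the 10 genes in each of 4 bone marrow (blue) and 4 small intestine (orange) libraries, with the tissue mean as a bar. The tissues do not overlap for S100a6, S100a8, S100a9, S100a10, Anxa1, Anxa2 and Anxa3, and the BM_4 library lies below the other bone marrow libraries for S100a8 and S100a6.

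The sort for eosinophils was checked against marker genes, and the marrow libraries held large amounts of RNA of neutrophil precursor marker genes. Which cells carried these transcripts was not tested. A list of 12 such genes, with Mpo, Elane and Ngp the most abundant, took 2.75% to 3.19% of reads in bone marrow and 0.00677% to 0.0074% in small intestine, and 11 of the 12 were called lower in small intestine, Mmp8 being the exception. A list of 10 eosinophil genes took 0.0211% to 0.0373% in bone marrow and 0.215% to 0.268% in small intestine, where Alox15, Ccr3 and Siglecf were its most abundant genes. Of the 10, 4 were called higher and 5 lower in small intestine, with a median difference of -1.85. Siglecf, which encodes the surface protein used in both sorts, had 580 ± 66 and 3077 ± 516 normalised counts (SD, n = 4), and Ccr3, the eotaxin receptor, 70.9 ± 25.7 and 16355 ± 2624. Genes of granule proteins went the other way, with Epx, the eosinophil peroxidase, at 350 ± 40.2 and 20.6 ± 9.07, Prg2, the major basic protein, at 1831 ± 396 and 147 ± 40.7, and Ear1 at 230 ± 170 and 9.85 ± 10.7. Mpo, the myeloperoxidase of the neutrophil lineage, had 149890 ± 19356 in bone marrow. Eosinophil markers thus took far fewer reads than neutrophil precursor markers in every marrow library, and the marrow values below are those of the sorted population as a whole.

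The S100 genes of this set lie on chromosome 3, S100a4, S100a6, S100a8 and S100a9 within 1 gene cluster and S100a10 and S100a11 in neighbouring positions further along (coordinates in GRCm38). The promoters of S100a8 and S100a9, the pair with the most reads in bone marrow, and of S100a11, a family member with near equal values in both tissues, are printed because the first pair moved together and S100a11 did not. Each is the stretch of RefSeq promoter (GRCm38.p6) upstream of the annotated transcript, 5′ to 3′ on the strand of the gene, and capitals mark matches on either strand to motifs searched by their letters, TTGCNNAA for C/EBP, TGANTCA for AP-1 and GAGGAA for PU.1.
S100a8, + strand, chr3:90668821-90668977: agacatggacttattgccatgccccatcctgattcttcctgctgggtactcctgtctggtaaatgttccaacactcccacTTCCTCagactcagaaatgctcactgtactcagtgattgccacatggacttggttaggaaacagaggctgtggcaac
S100a9, - strand, chr3:90695722-90695971: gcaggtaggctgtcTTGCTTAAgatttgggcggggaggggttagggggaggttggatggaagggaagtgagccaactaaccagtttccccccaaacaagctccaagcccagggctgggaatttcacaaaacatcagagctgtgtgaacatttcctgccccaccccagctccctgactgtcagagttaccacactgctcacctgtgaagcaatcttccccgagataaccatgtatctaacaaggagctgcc
S100a11, + strand, chr3:93520246-93520487: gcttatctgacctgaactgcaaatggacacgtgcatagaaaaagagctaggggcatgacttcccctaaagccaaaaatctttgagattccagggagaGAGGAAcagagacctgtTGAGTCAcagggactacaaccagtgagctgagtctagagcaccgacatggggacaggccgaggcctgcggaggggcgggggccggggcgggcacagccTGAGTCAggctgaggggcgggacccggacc
The S100a8 stretch held 1 PU.1 match, 170 bases before the RefSeq start, with a second at 36 bases that lies inside an annotated exon and is not printed. S100a9 held 1 C/EBP match at 236 bases, and S100a11 held AP-1 matches at 136 and 38 bases and a PU.1 match at 153. Of 32851 promoter windows of the same length, 9.56% held the C/EBP letters, 6.75% the AP-1 letters and 23.3% the PU.1 letters. These matches are letters in a window and no binding was measured. RefSeq windows were found for 8 of the 10 genes, S100a10 and Anxa3 being the ones without.

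The calprotectin genes had the highest values of the set in bone marrow. S100a9 (ENSMUSG00000056071, chr3:90692632-90695721, - strand) had 92613 normalised counts in BM_1, 117792 in BM_3, 91191 in BM_4 and 84591 in BM_5, and 189 in SI_6, 243 in SI_7, 327 in SI_10 and 347 in SI_11. Every marrow library was thus over every intestinal one, and the 4 marrow libraries lay close together. The means were 96547 ± 14588 and 277 ± 73.9 (SD, n = 4), a ratio of 349, and the difference on the deposited scale was -8.46 ± 0.25 (limma SE, adjusted p = 2.8e-07). Per kb of exon, S100a9 ranked 1 of 20623 protein-coding genes in bone marrow and 935 in small intestine.

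S100a8 (ENSMUSG00000056054, chr3:90668978-90670035, + strand), the partner subunit of calprotectin, had 80097 normalised counts in BM_1, 91888 in BM_3, 19693 in BM_4 and 70894 in BM_5. In the small intestine it had 80.8 in SI_6, 144 in SI_7, 170 in SI_10 and 127 in SI_11. BM_4 was low among the marrow libraries, at 0.3 of their mean, yet still far above every intestinal library. The difference was -8.77 ± 0.50 (limma, adjusted p = 5.62e-06, 95% interval -9.91 to -7.63), and without BM_4 it was -9.28. It ranked 2 per kb in bone marrow and 2624 in the intestine. Together S100a8 and S100a9 took 0.864% to 1.51% of the reads of a marrow library and 0.00173% to 0.00326% of those of an intestinal library.

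Annexin A1 fell beside them. Anxa1 (ENSMUSG00000024659, chr19:20373428-20390944, - strand) had 10633 normalised counts in BM_1, 9797 in BM_3, 14653 in BM_4 and 10688 in BM_5, and 68.8 in SI_6, 74.9 in SI_7, 48.1 in SI_10 and 87.7 in SI_11. The groups were well apart, and BM_4, low for S100a8, was the highest marrow library for Anxa1. Means were 11443 ± 2179 and 69.9 ± 16.5 (SD, n = 4), a ratio of 164, with a difference of -7.29 ± 0.24 (limma, adjusted p = 4.68e-07).

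Anxa3 (ENSMUSG00000029484, chr5:96793339-96845966, + strand) encodes annexin A3, a protein of neutrophil granules and their fusion with membranes. It had 3602 normalised counts in BM_1, 2818 in BM_3, 3644 in BM_4 and 2535 in BM_5, against 100 in SI_6, 108 in SI_7, 93 in SI_10 and 126 in SI_11. Its intestinal values had the narrowest relative range of the annexins described here, and no library overlapped with the other tissue. The difference was -4.82 ± 0.21 (limma, adjusted p = 1.48e-06, ratio of means 29.5), and 72 of 38392 genes, or 0.188%, had a difference as low or lower. An annotated transcript of the same strand, Gm42603, shares 3.07% of the exon bases of Anxa3 and itself went from 393 to 26.7 normalised counts, and no source used here says how shared reads were counted.

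The 4 genes that fell most went in the same direction as 11 of the 12 neutrophil precursor markers, which fell by very different amounts. Over the same libraries the ratio of tissue means was 911 for Mpo, 991 for Elane, 877 for Camp and 164 for Ltf, the last an equal ratio to that of Anxa1. It was 53.7 for Ly6g and 3.26 for Cebpe, and Mmp8 was higher in small intestine by 2.25 times. The part of neutrophil precursor cells in the values of S100a8, S100a9, Anxa1 and Anxa3 was not tested. Among all named genes of the table, the closest in pattern over the 8 libraries (root mean square distance between centred deposited values) were Ly6c2 (0.35), Ms4a3 (0.36) and Nkg7 (0.43) for S100a9, and S100a9 (0.64), Chil3 (0.72) and Ly6c2 (0.73) for S100a8. For Anxa1 they were Wfdc21 (0.44), Ltf (0.48) and Prss57 (0.49), and for Anxa3 Gatm (0.14), Hk3 (0.15) and Dram1 (0.19). This distance takes in the size of the tissue difference as well as the spread within a tissue.

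S100a10 and Anxa2 encode the subunits of a heterotetramer of the plasma membrane. In it S100A10, an S100 protein that does not need calcium, is held by annexin A2 and offers binding sites for plasminogen and its activator. S100a10 (ENSMUSG00000041959, chr3:93555080-93564643, + strand) had 62.8 normalised counts in BM_1, 67.2 in BM_3, 48.8 in BM_4 and 29.8 in BM_5. It had 583 in SI_6, 369 in SI_7, 353 in SI_10 and 466 in SI_11, so that every intestinal library exceeded every marrow library. Means were 52.1 ± 16.9 and 443 ± 106 (SD, n = 4) and the difference was 3.03 ± 0.30 (limma, adjusted p = 9.7e-05).

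Anxa2 (ENSMUSG00000032231, chr9:69453620-69491795, + strand) moved the other way. It had 720 normalised counts in BM_1, 770 in BM_3, 701 in BM_4 and 668 in BM_5, and 600 in SI_6, 375 in SI_7, 284 in SI_10 and 289 in SI_11. The groups did not overlap, but SI_6 came near the lowest marrow library. The difference was -0.94 ± 0.27 (limma, adjusted p = 0.024, 95% interval -1.55 to -0.34), and this call was lost when BM_1, BM_3, BM_4, SI_10 or SI_11 was left out (differences -0.95 to -0.82, adjusted p 0.0521 to 0.0618). An antisense gene, Gm16144, shares 2.63% of its exon bases, at 19.44 and 11.8 normalised counts, and no source used here says whether counting used strand.

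Within a library, the ratio of S100a10 to Anxa2 per kb of exon was 0.269 in BM_1, 0.269 in BM_3, 0.214 in BM_4 and 0.137 in BM_5, and 2.99 in SI_6, 3.03 in SI_7, 3.82 in SI_10 and 4.96 in SI_11. Anxa2 transcripts were thus the more abundant of the pair in every marrow library and S100a10 transcripts in every intestinal library. The mean log2 ratio was -2.22 ± 0.46 and 1.86 ± 0.34 (SD, n = 4), a difference of 4.08. The exact two-sided permutation p was 0.0286, the smallest that 4 against 4 libraries can give, and 0.0429 after Benjamini-Hochberg adjustment over 3 pairs. Both genes had already set the tissues apart, in opposite directions. This p was therefore fixed by their values and adds no evidence to them.

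S100a11 encodes the partner that binds the tail of annexin A1. S100a11 (ENSMUSG00000027907, chr3:93520488-93526287, + strand) had 2655 normalised counts in BM_1, 2451 in BM_3, 2028 in BM_4 and 2044 in BM_5, and 2347 in SI_6, 2533 in SI_7, 2466 in SI_10 and 2820 in SI_11. The tissues overlapped, with means of 2294 ± 310 and 2542 ± 201 (SD, n = 4) and a difference of 0.15 ± 0.18 (limma, adjusted p = 0.531, 95% interval -0.27 to 0.58). Its sign depended on scaling, at -0.75 with libraries centred on their medians and -0.20 with quantile normalisation, neither of them called. With medians taken only over genes that averaged 10 reads or more, the difference was 0.09 and not called (limma, adjusted p = 0.78). Per kb, S100a11 ranked 55 and 63 among protein-coding genes in bone marrow and small intestine.

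The ratio of S100a11 to Anxa1 per kb was 1.42 in BM_1, 1.42 in BM_3, 0.788 in BM_4 and 1.09 in BM_5, and 194 in SI_6, 193 in SI_7, 292 in SI_10 and 183 in SI_11. By merged exons the transcripts of this pair were near parity in marrow, and in the intestine S100a11 was in large excess. Parity depended on the length used. With the longest transcript, Anxa1 stood at 6836 ± 1302 per kb in marrow and S100a11 at 4490 ± 607 (SD, n = 4), and their ranges did not overlap. The intestinal excess remained, at 41.7 for Anxa1 and 4974 for S100a11. The mean log2 ratio was 0.20 ± 0.41 and 7.72 ± 0.31 (SD, n = 4), a difference of 7.52 (exact permutation p = 0.0286, adjusted 0.0429). Here the p was fixed by the fall of Anxa1 beside a nearly level S100a11, and it adds no evidence to those values.

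The ratio of S100a8 to S100a9 gave no such change. It was 0.651 in BM_1, 0.587 in BM_3, 0.162 in BM_4 and 0.63 in BM_5, and 0.322 in SI_6, 0.447 in SI_7, 0.39 in SI_10 and 0.275 in SI_11. S100a9 was the more abundant transcript per kb in all 8 libraries. The log2 ratio differed by -0.34 (exact permutation p = 0.571), and by -0.82 without BM_4, where 3 against 4 libraries cannot give an exact p below 0.0571.

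**Figure D2:**
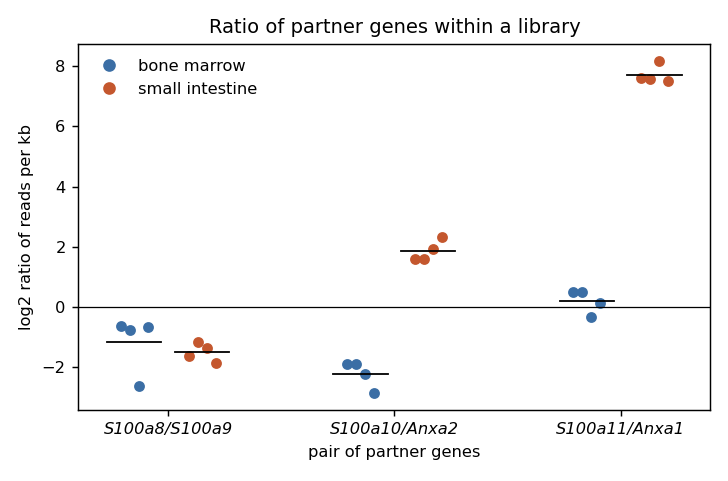
Log2 ratio of reads per kb of exon (vertical axis) for the pairs S100a8/S100a9, S100a10/Anxa2 and S100a11/Anxa1 in each bone marrow (blue) and small intestine (orange) library, with the tissue mean as a bar. The tissues overlap for the first pair, through BM_4, and are apart for the other pairs, where the S100 transcript gains on the annexin in the small intestine.

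S100a6 and S100a4 encode calcyclin and metastasin, S100 proteins linked to the cytoskeleton and cell movement. S100a6 (ENSMUSG00000001025, chr3:90612882-90624181, + strand) had 63.6 normalised counts in BM_1, 62.6 in BM_3, 25.8 in BM_4 and 69.7 in BM_5, and 136 in SI_6, 119 in SI_7, 140 in SI_10 and 249 in SI_11. All intestinal libraries were higher than all marrow libraries, with BM_4 the lowest and SI_11 the highest of the 8. The difference was 1.50 ± 0.36 (limma, adjusted p = 0.0116), and it was 1.20 (adjusted p = 0.0186) without BM_4 and 1.28 (adjusted p = 0.0286) without SI_11. With libraries centred on their medians it was 0.60 and not called (adjusted p = 0.31). With medians taken only over genes that averaged 10 reads or more it was 1.44 and called (adjusted p = 0.02).

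S100a4 (ENSMUSG00000001020, chr3:90603771-90606045, + strand) was at the limit of detection, with 3 reads in BM_1, 1 in BM_3, 2 in BM_4, 3 in BM_5, 0 in SI_6, 0 in SI_7, 2 in SI_10 and 1 in SI_11. The tissues overlapped and the difference was not called (-0.70 ± 0.39, limma adjusted p = 0.212). It was called with libraries centred on their medians (-1.60, adjusted p = 0.00337) and with quantile normalisation (-1.31, adjusted p = 0.0252). With medians taken only over genes that averaged 10 reads or more it was -0.76 and not called (adjusted p = 0.249). A gene of the same strand that is not analysed here, Gm42674, shares 302 of the 584 exon bases of S100a4, or 51.7%, so the low value of S100a4 is uncertain.

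Anxa5 (ENSMUSG00000027712, chr3:36448923-36475894, - strand), the annexin that coats exposed phosphatidylserine, had 707 normalised counts in BM_1, 540 in BM_3, 654 in BM_4 and 545 in BM_5, and 418 in SI_6, 480 in SI_7, 535 in SI_10 and 576 in SI_11. The tissues overlapped, and the difference was -0.28 ± 0.20 (limma, adjusted p = 0.317, 95% interval -0.73 to 0.17). With libraries centred on their medians it was -1.18 and called (adjusted p = 0.0357). With medians taken only over genes that averaged 10 reads or more it was -0.35 and not called (adjusted p = 0.33). Among the genes closest in pattern were Clic1 for Anxa5 (distance 0.09), Vdac1 for Anxa2 (0.10), Ewsr1 for S100a11 (0.07), Apoe for S100a10 (0.24) and Lmbr1l for S100a6 (0.28).

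The order of the 10 genes by level, in normalised counts per kb of exon, differed between tissues. In bone marrow S100a9 (184955 ± 27947, SD, n = 4) and S100a8 (94586 ± 45843) came first, followed by S100a11 (4490 ± 607) and Anxa1 (3931 ± 748), whose ranges overlapped. Anxa3 (865 ± 153), Anxa5 (344 ± 46.5) and Anxa2 (192 ± 11.4) came next, each apart from its neighbours. S100a10 (43 ± 13.9) and S100a6 (40.6 ± 14.6) overlapped, and S100a4 (3.28 ± 1.57) was last.

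In the small intestine S100a11 (4974 ± 393) stood alone at the top. S100a9 (530 ± 142), S100a10 (365 ± 87.4), Anxa5 (283 ± 38.6), S100a8 (188 ± 53.9), S100a6 (118 ± 43.3) and Anxa2 (104 ± 39.7) followed in a row in which each overlapped with the next. Anxa3 (29.3 ± 3.84) and Anxa1 (24 ± 5.67), which also overlapped, lay below them, and S100a4 (1.44 ± 1.81) was again last. With the length of the longest transcript in place of merged exons, Anxa1 and S100a11 changed places in bone marrow and S100a10 and S100a9 in small intestine.

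In the rest of both families more genes were called higher than lower in the small intestine, as over all genes (22.0% higher and 12.9% lower). Among genes that averaged 10 reads or more the shares were 34.6% and 28.6%. Of 12 other S100 genes, 4 were called higher, 1 lower and 7 neither (3 and 2 with libraries centred on their medians, 1 and 1 with quantile normalisation), with a median difference of 0.73, and 4 of the 12 averaged 10 reads or more. The count of higher genes was 2 without BM_3, BM_5 or SI_10, and that of lower genes 2 without SI_11. S100a1, a calcium sensor best known from heart muscle, was the one that fell, from 360 ± 47.1 to 24.8 ± 6.87 normalised counts (-3.70 ± 0.23, limma adjusted p = 9.66e-06), with 297 to 397 in marrow libraries and 18 to 30.8 in intestinal ones. S100g, the vitamin D-dependent calcium-binding protein of the gut epithelium, rose by 1.33 ± 0.37 (adjusted p = 0.0226) and S100a16 by 3.47 ± 0.75 (adjusted p = 0.00701). Both were highest in SI_6, at 128 and 87.3 normalised counts.

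Of 8 other annexins, 5 were called higher, 0 lower by limma and 3 neither (4 higher and 1 lower with centred medians, 1 lower without BM_5), with a median difference of 1.76, and 6 of the 8 averaged 10 reads or more. Anxa6, the large annexin of endosomes and plasma membrane, had 355, 394, 442 and 287 normalised counts in BM_1, BM_3, BM_4 and BM_5 and 6645, 7989, 8083 and 9349 in SI_6, SI_7, SI_10 and SI_11. It rose by 4.43 ± 0.21 (limma, adjusted p = 2.34e-06) and was the annexin with the most reads in the intestinal libraries. Anxa4 went from 77.6 ± 22.6 to 1266 ± 986 (3.72 ± 0.50, adjusted p = 0.000531) and Anxa13, an annexin of gut epithelium, from 1.16 ± 2.32 to 242 ± 225 (6.02 ± 0.74, adjusted p = 0.000339). Anxa11 rose by 0.77 ± 0.20 (adjusted p = 0.0176), and Anxa7 differed by -0.04 ± 0.17 (adjusted p = 0.861).

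**Figure D3:**
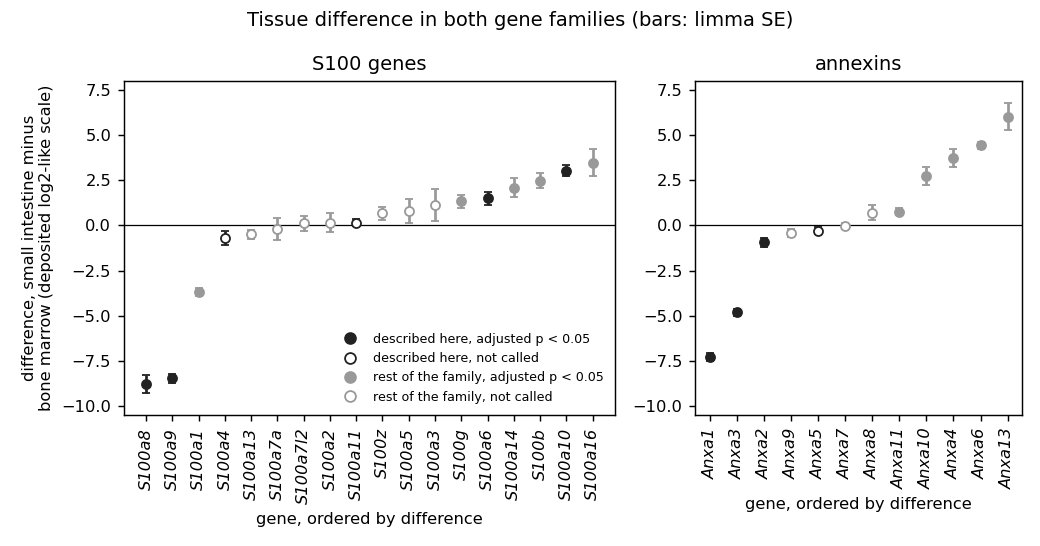
Difference between tissues (small intestine minus bone marrow, deposited log2-like scale, limma SE as bars) for 18 S100 genes and 12 annexins, ordered by size, with the 10 genes described here in black and the others in grey. Filled symbols passed an adjusted p of 0.05, and S100a8, S100a9, Anxa1, Anxa3 and S100a1 lie farthest below 0.

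Among receptors for released S100 proteins and annexin A1, more genes were called lower than higher in the small intestine. Of 8 such genes 1 was called higher, 4 lower and 3 neither, with a median difference of -0.39. Over all genes 22.0% were called higher and 12.9% lower, and 34.6% and 28.6% among those that averaged 10 reads or more. Tlr4, the endotoxin receptor that also binds S100A8 and S100A9, fell from 583 ± 56.3 to 108 ± 25 normalised counts (-2.41 ± 0.21, limma adjusted p = 5.47e-05). Fpr2, the receptor of annexin A1, fell from 71.1 ± 3.51 to 14.9 ± 7.18 (-2.11 ± 0.30, adjusted p = 0.00076). Ager (-0.93 ± 0.27, adjusted p = 0.0259) and Emb (-0.72 ± 0.22, adjusted p = 0.0337) also passed, though the count of lower genes was 2 when BM_1, BM_3, BM_4 or SI_7 was left out. Cd33, a sialic acid-binding receptor that has also been described as a receptor of S100A9, rose from 983 ± 52 to 4419 ± 1690 (2.08 ± 0.30, adjusted p = 0.00075).

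Of 9 genes for the binding partners and the plasminogen system of the S100A10 and annexin A2 complex, 7 were called higher, 1 lower (Plau) and 1 neither (Plg). Their median difference was 3.54. Of all genes 22.0% were called higher, and 34.6% of those that averaged 10 reads or more. Ahnak, a giant scaffold protein that binds the complex, went from 307 ± 39.7 to 2707 ± 323 normalised counts (3.13 ± 0.19, limma adjusted p = 8.06e-06), and Plaur, the urokinase receptor, from 475 ± 48.2 to 7117 ± 888 (3.89 ± 0.19, adjusted p = 2.49e-06). Serpinb2, an inhibitor of plasminogen activators, had 12.4 to 55.8 normalised counts in marrow libraries and 15623 to 25534 in intestinal ones (9.53 ± 0.40, adjusted p = 1.34e-06). Plau, the urokinase itself, fell by 1.81 ± 0.30 (adjusted p = 0.00161).

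Of 10 cytosolic partners of these proteins, 4 were called higher, 1 lower and 5 neither, with a median difference of 0.63. The count of higher genes is near the share of 34.6% among all genes that averaged 10 reads or more. With libraries centred on their medians the split turned to 2 higher and 3 lower. With medians taken only over genes that averaged 10 reads or more it stayed at 4 and 1. Cacybp, the ubiquitin ligase adaptor known as calcyclin-binding protein, fell from 740 ± 31.5 to 155 ± 17.8 normalised counts (-2.23 ± 0.18, limma adjusted p = 2.87e-05) while S100a6 rose. Capn2, a calpain subunit, rose from 45.2 ± 8.47 to 1036 ± 215 (4.41 ± 0.24, adjusted p = 4.06e-06), and Pla2g4a, the cytosolic phospholipase A that annexin A1 inhibits, from 805 ± 34.7 to 4622 ± 845 (2.50 ± 0.20, adjusted p = 3.49e-05). Myh9, the non-muscle myosin bound by S100A4, rose by 1.08 ± 0.17 (adjusted p = 0.00132).

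Spread between the libraries of 1 tissue was examined for BM_4 and SI_6. The highest S100a8 value in bone marrow was 4.67 times the lowest, and the highest Anxa2 value in the small intestine 2.11 times the lowest. In BM_4, S100a8 stood at 0.3 and S100a6 at 0.466 of the marrow mean, while S100a9 was at 0.945, Camp at 0.978, Ngp at 0.985, Ltf at 1.11 and Lcn2 at 0.979. Among further neutrophil precursor genes in BM_4, Mpo stood at 1 and Elane at 0.876 of the marrow mean. Ly6g had 76.6 normalised counts in BM_4, against a marrow mean of 92.1. The neutrophil precursor list took 3.1% of reads in BM_4, within the marrow range of 2.75% to 3.19%. The part of neutrophil precursor cells in the low S100a8 value of BM_4 was not tested. In SI_6, Anxa2 stood at 1.55, S100a10 at 1.32, Anxa4 at 2.13 and Anxa13 at 2.3 of the intestinal mean, beside 2.43 for Epcam and 2.35 for Krt19. The 10 epithelial markers took 0.157% of reads in SI_6, 0.0655% in SI_7, 0.026% in SI_10 and 0.0288% in SI_11, and 0.00136% to 0.00163% in marrow, and no marker was at 0 in all libraries of a tissue. Their part in the intestinal values of S100a10 and Anxa2 was not tested. Without SI_6, S100a10 differed by 2.89 (limma, adjusted p = 0.000493) and Anxa2 by -1.18 (adjusted p = 0.00131).

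**Figure D4:**
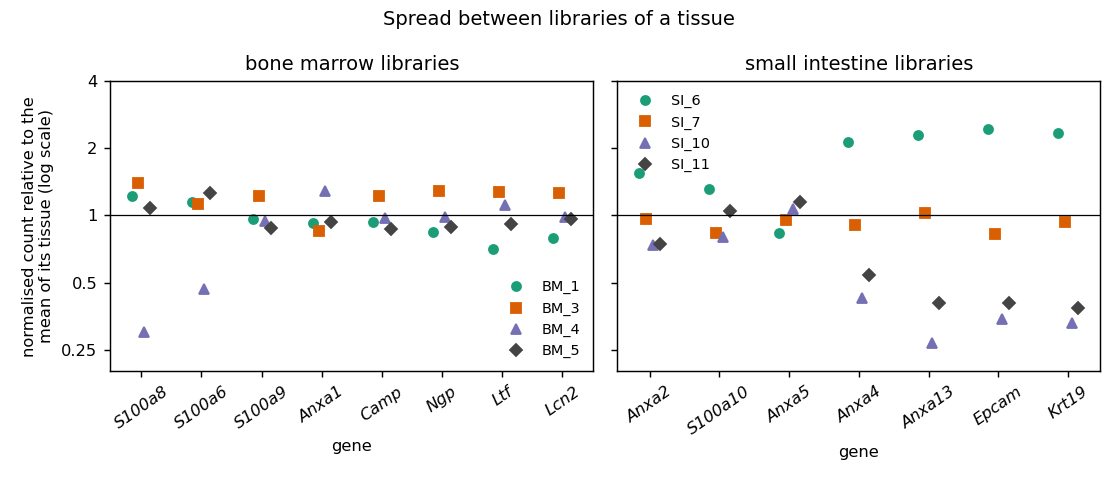
Normalised count relative to the mean of its tissue (log axis) in each bone marrow library (left) and small intestine library (right), for the genes named on the horizontal axis. BM_4 is low for S100a8 (0.3) and S100a6 (0.466) but not for S100a9, Camp, Ngp, Ltf or Lcn2, and SI_6 is high for Anxa2 (1.55), S100a10 (1.32), Anxa4, Anxa13, Epcam and Krt19.

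Other marker lists also moved with tissue and were not tested for their part in these values. Read shares rose from 0.0568% to 0.0739% in bone marrow to 0.0968% to 0.103% in small intestine for monocytes and macrophages, and from 0.00313% to 0.00427% to 0.0482% to 0.0574% for endothelial cells. In the first list 8 of 10 genes were called higher and 1 lower, with Adgre1 at 161 and 13675 normalised counts and Ly6c2 at 8269 and 16.7. In the endothelial list 7 of 8 were called higher, and Pecam1, the most abundant, had 384 and 8164. Plasma cell genes took 0.0189% to 0.0226% and 0.0325% to 0.176%. Of these 6 genes 4 were called higher and 1 lower, with Igha at 35.7 and 13600 normalised counts and Xbp1 at 2733 and 1121. The marrow share was thus mostly Xbp1 and the intestinal share mostly Igha. Mast cell and basophil genes took 0.0385% to 0.0511% and 0.0541% to 0.112%. Of these 8 genes 2 were called higher and 5 lower, with Hdc at 2441 and 11512 normalised counts and Mcpt8 at 109 and 2.46. Fibroblast genes took 4.48e-05% to 0.00055% and 0.00105% to 0.00518%. Erythroid genes took 0.00642% to 0.00858% in bone marrow and 0.000262% to 0.000653% in small intestine.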

How the data were processed

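Reads were single-end, from amplified cDNA. The authors counted them per gene (GRCm38, Ensembl release 86) with a public pipeline and deposited values on a log2-like scale, the variance stabilised output of DESeq2 in R 4.0.3. No source used here names the aligner, the strand setting or the handling of shared reads. The column names gave the tissue and did not match single samples.

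The transformation was inverted, which returned whole reads (tolerance 0.05) for 100% of genes, and size factors of 0.721 to 1.53. Depth limits precision mainly for 22177 genes that average under 10 reads. Coordinates and exon lengths came from GENCODE M21.

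The comparison of tissues used the deposited values of all 38392 genes in limma (version 3.58.1, R 4.3.3), without covariate or filter. The study used DESeq2 for differential expression, and limma took its place because the unit is not counts. Adjusted p-values are two-sided, by Benjamini-Hochberg over all genes. They measure only the spread between these libraries. Ratios of partner genes were compared by exact permutation with scipy 1.17.1. The procedure was also run on simulated data, with fewer changed genes and smaller changes than the largest ones here. No result here rests on that run. Members, lists, partner pairs and tests were chosen with earlier results of these data known. All 10 members were named, from the lists only genes called or serving as a contrast, and for likeness the 3 nearest named genes or 1 of them. Some genes were counted in the lists and are not reported singly. Alternatives were 17 per gene (16 for S100a4, which the filter removed), among them voom on recovered reads, other scalings, pseudocounts of 1 and 5, a filter at a mean of 10 reads and leaving out each library.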

Additional observations from a re-analysis of the deposited data

Results flagged for a closer look

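For each measure and tissue, the distance from the highest or lowest of the 4 libraries to its neighbour was divided by their range and compared with Dixon's 95% critical value. The value exceeded it for 6 of 44 groups of 4 values examined, where chance gives about 1 in 20, or 2.2. Some groups share values, because the ratios are formed from genes that were also examined singly. Setting 6 against 2.2 is therefore no test of an excess.

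In bone marrow, BM_4 was the lowest library for S100a6 (0.888, distance over range), for S100a8 (0.832) and for the log2 ratio of S100a8 to S100a9 (0.926). S100a9 stood at 0.945 of the marrow mean in that library. In small intestine, SI_10 was the highest for the log2 ratio of S100a11 to Anxa1 (0.872). SI_6 was the lowest for the read share of eosinophil markers (0.889), at 0.215% against 0.262% to 0.268%. SI_11 was the highest for the share of neutrophil precursor markers (0.862), at 0.0074% against 0.00677% to 0.00686%.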

How the results depend on the processing

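Of 169 alternative values for the differences of the 10 genes, 158 kept direction and call. S100a8, S100a9, S100a10, Anxa1 and Anxa3 kept theirs in all 17 alternatives, at -9.67 to -8.46, -9.36 to -8.29, 2.13 to 3.16, -8.19 to -7.13 and -5.72 to -4.75. Centring libraries on their medians moved the median of all genes from 0.37 to -0.53 and gave -0.75 for S100a11, -1.60 for S100a4 (called), -1.18 for Anxa5 (called) and 0.60 for S100a6 (not called). Members called higher then numbered 1, other S100 genes called lower 2, other annexins called lower 1, and cytosolic partners 2 higher and 3 lower. Centring on medians of only the genes that averaged 10 reads or more, added after the data were seen, gave a median of all genes of 0.31. S100a11 was then at 0.09, S100a4 at -0.76 and Anxa5 at -0.35 (none called), and S100a6 at 1.44 (called). Members were 2 higher and 5 lower, and receptors called lower numbered 3. Quantile normalisation (median of all genes -0.03) gave -0.20 for S100a11, -1.31 for S100a4 (called) and 1 other S100 gene called higher. The filter at 10 reads, which tests fewer genes, gave 2 other S100 genes higher and 1 other annexin lower.

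Without 1 library at a time, the Anxa2 difference was -1.18 to -0.82 and lost its call in 5 of 8 cases. The log2 ratio of S100a8 to S100a9 was -0.82 to -0.15, lowest without BM_4. Other S100 genes called higher numbered 2 to 4, at 2 without BM_3, BM_5 or SI_10, and lower 1 to 2, at 2 without SI_11. Other annexins called lower numbered 0 to 1, at 1 without BM_5, and receptors called lower 2 to 4. Leaving out BM_5 and SI_6 together, added after the data were seen, gave 2 members higher and 5 lower.

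With longest transcript lengths, levels per kb in bone marrow were 70.8 for S100a6, 76.1 for S100a10, 6836 for Anxa1, 313 for Anxa2 and 1975 for Anxa3. In small intestine they were 206 for S100a6, 262 for S100a8, 646 for S100a10, 41.7 for Anxa1, 170 for Anxa2 and 67 for Anxa3. For changes other than these of construction, the cause was not tested. No paired analysis was possible because the columns carry no number shared between tissues.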
